A study of Mus musculus with 4 samples.

Results

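The 45 genes described here belong to the nuclear receptor superfamily, and were taken by symbol from the name column of the deposited table of FPKM values (fragment counts scaled by transcript length and library depth) and joined to the count table by gene identifier. All 45 were found, among 37653 genes of the FPKM table and 55335 of the count table. Other members of the superfamily were not analysed here. By role, 5 are steroid hormone receptors, 6 are retinoid receptors, 11 bind thyroid hormone, vitamin D, lipids or foreign compounds, 4 act in the circadian clock, and 19 are orphan or other receptors.

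Nuclear receptors are transcription factors that bind DNA through a zinc-finger domain and, in most cases, a small lipid-soluble ligand through a separate domain. Retinoid, thyroid and lipid receptors typically sit on DNA as pairs with a retinoid X receptor and exchange corepressors for coactivators when ligand arrives, whereas steroid receptors are held by chaperones until their hormone binds. Orphan receptors have no ligand that is generally agreed. In the testis, retinoic acid receptors are best known for the commitment of spermatogonia to differentiation, and Nr5a1 and Nr0b1 for Sertoli and Leydig cells, the somatic cells that nurse germ cells and make androgen.

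Poly(A) RNA was sequenced from spermatogonial stem cells (SSCs) grown in culture, the germ cells that sustain sperm production. They came from a mouse testis of strain C57/BL6*DBA2 at postnatal day 10 and were collected on a cell sorter. The study compared 2 libraries of wild-type (WT) cells with 2 of cells labelled Tex11PM/Y, named after the X-linked meiotic crossover gene Tex11. The labels define neither PM nor the line or animal behind each library, and state no treatment. What the p-values weigh is thus the spread among these libraries, which may be technical. The deposited tables give the 2 Tex11PM/Y columns one name, so they are called library A and library B in column order, and 4 values in a row are those of WT replicate 1, WT replicate 2, library A and library B.

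Total counts ranged from 19047148 to 19804951. A count of 0 allowed up to 3 counts, or 0.149 to 0.169 CPM (counts scaled to TMM-adjusted library size); these floors cover counting error only. Tex11 itself held 66.4, 126, 22.7 and 9.32 CPM, lower in both Tex11PM/Y libraries (log2 fold change -2.59 ± 0.54 SE, edgeR adjusted p = 0.884). Markers of undifferentiated spermatogonia were present in every library, with a summed level of 2339 to 3390 CPM over 9 genes. The summed level of 10 fibroblast markers was 14560, 3962, 428 and 5097 CPM, and that of 7 macrophage markers was 634, 472, 22.7 and 1143 CPM, so library A held the least of both. Lyz2 made up most of the macrophage sum, at 529.5, 417, 13.1 and 1052 CPM. Sertoli markers summed to 14.8 to 27.1 CPM over 7 genes. Leydig markers summed to 9.91 to 15.96 CPM over 6 genes, nearly all of it Star, and Hsd3b1, Insl3 and Lhcgr each had 0 counts in at least 1 library. Genes of chromosome 8 stood 0.40 log2 above the mean of the other 3 libraries in WT replicate 1 (median of 921 genes), and those of chromosome 12 stood 0.57 log2 above that mean in WT replicate 2 (median of 632 genes). In bulk RNA, fewer cells of a type and less RNA per cell cannot be told apart.

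Receptor transcripts made up 0.131% to 0.148% of the counts of a library. Of the 45 genes, 10 had a mean of at least 10 FPKM over the 4 libraries, 23 had at least 1 FPKM, 11 lay between 0.1 and 1 FPKM, and 11 lay under 0.1 FPKM. The genes at 1 FPKM or more were 2 of 5 steroid receptors, 4 of 6 retinoid receptors, 4 of 11 of the thyroid, vitamin D, lipid and xenobiotic group, 3 of 4 clock receptors and 10 of 19 orphan and other receptors. The highest mean FPKM belonged to Nr2f6 (56.8), Nr1d1 (52.96), Nr1h2 (40.5), Nr4a1 (38.4) and Nr1d2 (31.4), none of them a steroid or retinoid receptor. The same 23 genes led when TMM-scaled CPM was divided by the exon length in the count table, with Nr1d1, Nr1h2, Nr4a1, Nr2f6 and Nr1d2 as the first 5 in that order.

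**Figure D1:**
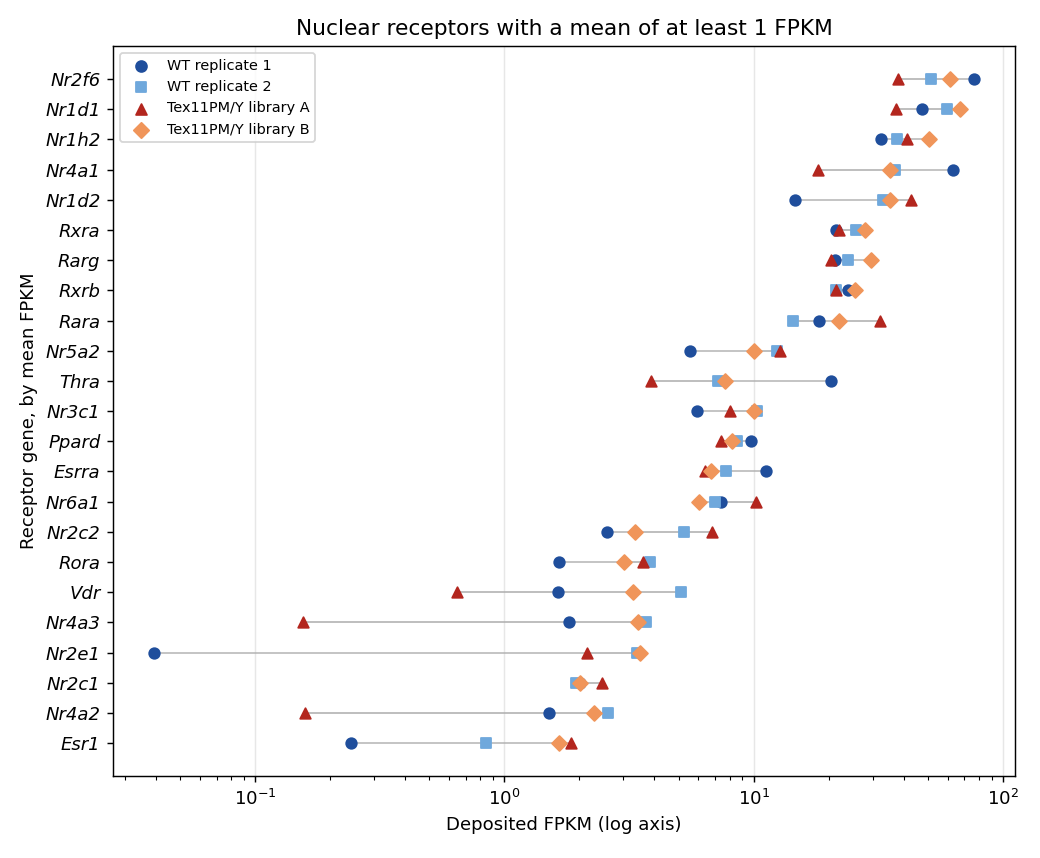
Deposited FPKM (log axis) of the 23 receptor genes with a mean of at least 1 FPKM, ordered by that mean, with 1 point per library and a grey line over their range. Rxra, Rarg and Rxrb lie close together in all 4 libraries, whereas Nr2e1 spans from 0.0393 to 3.49 FPKM and Nr4a3 from 0.155 to 3.70 FPKM.

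Between the genotypes, no receptor passed the threshold of an adjusted p under 0.05. Of the 45 genes, 32 passed the filter on low counts and were tested with edgeR among 17262 genes in all; 0 receptors were called, and the share called over all genes was 0%. An unadjusted p under 0.05 was reached by 3 receptors, Esr1 and Rxrg with higher and Nr2f2 with lower counts in Tex11PM/Y; over all genes tested 2.7% reached it, 0.991% higher and 1.71% lower. The WT and Tex11PM/Y libraries did not overlap in CPM for 5 receptors on the higher side and 7 on the lower side. That was 37.5% of the 32 tested, where 32.4% of all genes did not overlap (16.1% higher and 16.3% lower). Among these receptors, Rxrg and Pparg reached the filter through the genotype in which they were higher. Of the 32 fitted log2 fold changes 15 were above and 17 below 0, with a median of -0.01 beside 0.01 over all genes. DESeq2 also called 0 receptors, with 4 at an unadjusted p under 0.05, which 4.49% of all genes reached in that test. For a single gene, the smallest two-sided p of an exact permutation test over these libraries is 0.333. With single libraries left out, the number of receptors at an unadjusted p under 0.05 was 0 without WT replicate 1, 7 without WT replicate 2, 1 without library A and 9 without library B; over all genes tested the shares were 0.399%, 7.01%, 0.852% and 15%.

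**Figure D2:**
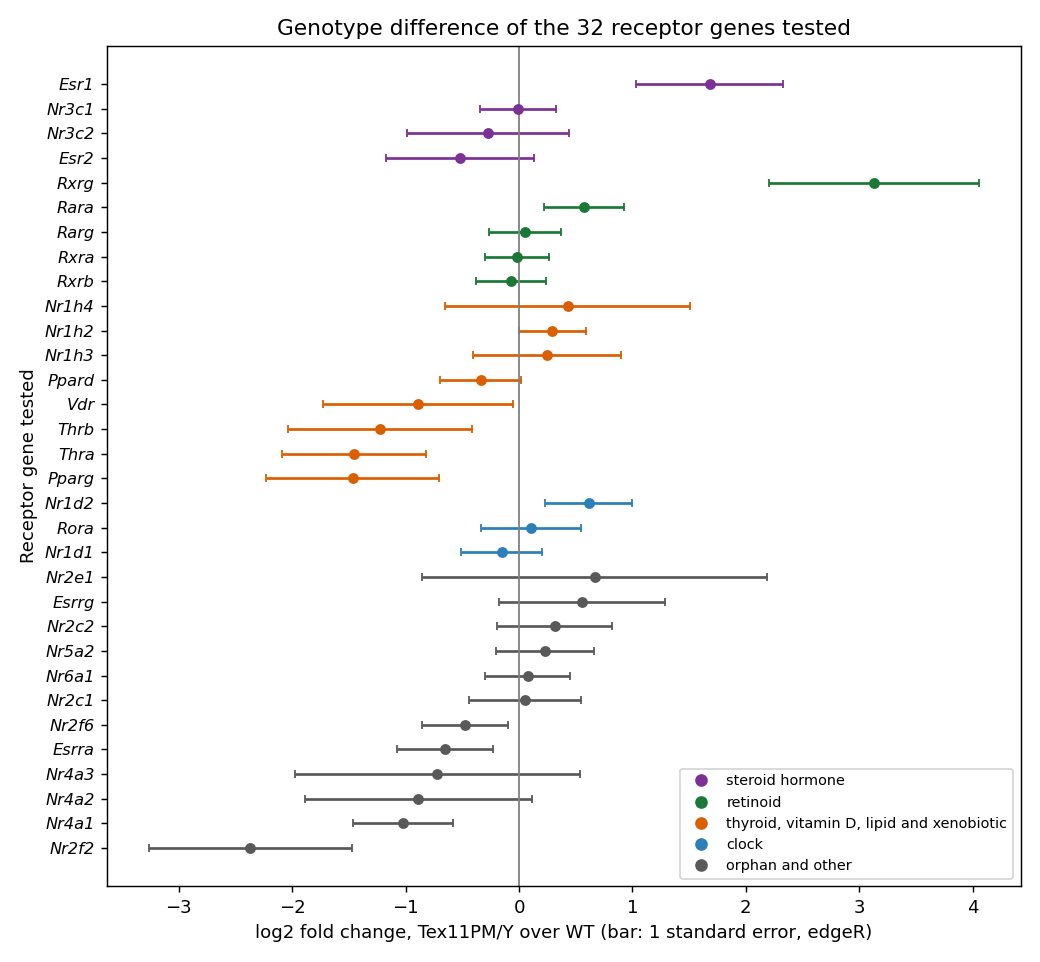
Log2 fold change of Tex11PM/Y over WT (x axis) for each of the 32 receptor genes tested, grouped by role; bars are 1 standard error of the edgeR fit. Rxrg (3.13) and Esr1 (1.68) lie farthest to the right and Nr2f2 (-2.37) farthest to the left, and none passed the threshold over all genes.

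Among the retinoid receptors Rxra, Rxrb and Rarg were abundant and similar in all libraries, and Rxrg was scarce with more counts in Tex11PM/Y. The receptors for retinoic acid (the RAR genes) pair with the retinoid X receptors (the RXR genes), and at least 1 of each kind was well above the floor in every library. Rxra, the commonest partner of other receptors, held 139, 151.5, 129 and 158.5 CPM. Rxrb held 81.8, 68.1, 64.9 and 77.5 CPM. In both genes the highest library was under 1.3 times the lowest, and the genotypes overlapped. Rarg, the retinoic acid receptor best known in spermatogonia, held 82.7, 84.8, 71.5 and 102 CPM, with library A below and library B above the narrow WT range (log2 fold change 0.05 ± 0.32 SE, edgeR adjusted p = 0.983). Rara, the receptor usually placed in Sertoli cells, held 62.98, 46.4, 97.3 and 65.5 CPM. Its groups did not overlap, by a margin of under 3 CPM between WT replicate 1 and library B (log2 fold change 0.57 ± 0.35 SE, edgeR adjusted p = 0.884). Rara lies on chromosome 11 from 98927818 to 98974942 and Rarg on chromosome 15 from 102234938 to 102257517 in mm10.

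The remaining retinoid receptors were scarce. Rarb, itself a classic target that retinoic acid switches on, had 0, 3, 2 and 3 counts, and no library exceeded the 3 counts that a 0 allows. Part of its exons, 1793 bases, also belong to Top2b on the other strand. Rxrg, the retinoid X receptor of muscle and brain, had 5, 8, 97 and 25 counts, or 0.281, 0.405, 4.89 and 1.25 CPM. Both Tex11PM/Y libraries were above both WT libraries, and library A stood far above library B. The gene lies on chromosome 1 from 167598384 to 167639623 on the plus strand (mm10). Its log2 fold change was 3.13 ± 0.92 (SE; edgeR adjusted p = 0.884). It reached the count filter through the Tex11PM/Y libraries, and with a mean of 0.629 FPKM it was singled out after its values were seen. Without library B the log2 fold change of Rxrg was 3.76, and without library A it was 1.84. Each of these fits has 1 Tex11PM/Y library, and its spread is taken from WT.

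Among steroid receptors, the glucocorticoid receptor Nr3c1 was the most abundant and the oestrogen receptor Esr1 had the largest fitted genotype difference. Nr3c1 held 51.3, 74.2, 58.5 and 66.2 CPM, with both Tex11PM/Y libraries inside the WT range (log2 fold change -0.01 ± 0.34 SE, edgeR adjusted p = 0.997). Its mean was 8.60 FPKM. Esr1, the main oestrogen receptor of the reproductive tract, had 36, 107, 224 and 254 counts, or 2.02, 5.41, 11.3 and 12.7 CPM. The groups did not overlap, and the WT libraries differed from each other more than the Tex11PM/Y libraries did. The mean was 3.72 ± 2.40 CPM over the WT libraries, against 11.97 ± 0.973 CPM over the Tex11PM/Y libraries (SD, n = 2 per genotype). The log2 fold change was 1.68 ± 0.65 (SE; edgeR adjusted p = 0.884). Without WT replicate 1 the log2 fold change was 1.13, and without WT replicate 2 it was 2.54. The gene lies on chromosome 10 from 4611989 to 5005614 on the plus strand in mm10. The fibroblast markers were highest in WT replicate 1, where Esr1 was lowest, and lowest in library A, where Esr1 was near its highest; their part in the difference was not tested.

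Esr2, the other oestrogen receptor, had 48, 76, 51 and 40 counts, highest in WT replicate 2. Genes of its chromosome 12 stood above the mean of the other libraries there, and their part was not tested. Nr3c2, the mineralocorticoid receptor, had 23, 26, 29 and 14 counts. Pgr, the progesterone receptor and a classic oestrogen target, had 5, 3, 1 and 0 counts and was not tested. These 3 genes were all under 1 FPKM.

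In the thyroid, vitamin D, lipid and xenobiotic group, Nr1h2 led and the genes that differed most were lowest in library A. Nr1h2, the widely expressed oxysterol receptor LXR beta, held 86.6, 93.0, 99.8 and 121 CPM, with both Tex11PM/Y libraries above both WT libraries. Its paralog Nr1h3, LXR alpha, known from liver and macrophages, had 31 to 47 counts per library, highest in library B and lowest in WT replicate 2. The summed macrophage markers, most of them Lyz2, were also highest in library B, but 3 of the 7 markers were highest in WT replicate 1. All 7 were lowest in library A. Ppard, the widely expressed fatty acid receptor, held 43.0, 33.9, 29.4 and 31.5 CPM, lower in both Tex11PM/Y libraries, with WT replicate 2 closer to library B than to WT replicate 1. Thra, the thyroid hormone receptor alpha gene, held 53.4, 16.7, 8.71 and 16.8 CPM. WT replicate 1 was far above the rest, WT replicate 2 and library B were equal within 1%, and library A was lowest. Its log2 fold change was -1.46 ± 0.63 (SE; edgeR adjusted p = 0.884), and -0.41 without WT replicate 1. The fibroblast markers had the same extremes, highest in WT replicate 1 and lowest in library A; their part in the result was not tested.

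Thra lies on the plus strand of chromosome 11 from 98741811 to 98769006, and its end overlaps that of the clock gene Nr1d1 on the minus strand, from 98767932 to 98775333 (mm10). The pair shares 263 exonic bases, and since the labels do not say that the libraries mark strand, their reads there cannot be told apart. Both genes were lowest in library A, and Nr1d1 was highest in library B and Thra in WT replicate 1. Vdr, the vitamin D receptor, held 9.72, 27.4, 3.27 and 16.7 CPM, with WT replicate 2 highest and library A lowest, so each genotype had a high and a low library.

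Members of this group under 1 FPKM were mostly tissue-restricted receptors. Pparg, the receptor of fat cells and macrophages, had 19, 15, 5 and 8 counts, and the groups did not overlap. Its counts reached the filter through the WT libraries, where they were higher. Thrb, the second thyroid hormone receptor gene, had 24, 43, 7 and 23 counts, with library B just under WT replicate 1. Nr1h4, the bile acid receptor, had 6, 29, 6 and 43 counts, low in 1 library of each genotype and higher in the other. The xenobiotic receptors Nr1i2 and Nr1i3 had at most 8 counts in any library, and Ppara, the fatty acid receptor of liver, had 4 to 12 counts. Nr1i3 shares 2160 exonic bases with Tomm40l on the other strand, which had 96 to 167 counts.

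Of the clock receptors Nr1d1, Nr1d2 and Rora were present in every library and Rorb was near the floor. Nr1d1 and Nr1d2 encode the REV-ERB repressors, which hold down Arntl (Bmal1), and Rora encodes an activator that binds the same elements. Nr1d1 held 156, 175, 106 and 192 CPM, with the WT range inside that of Tex11PM/Y. Nr1d2 held 93.6, 188.5, 238 and 193 CPM. WT replicate 1 was lowest, the other 3 libraries lay within 1.3 times of each other, and the groups were narrowly apart on the higher side. Rora held 20.6, 42.3, 35.1 and 32.5 CPM, also lowest in WT replicate 1. Rorb, the form of brain and retina, had at most 10 counts in any library.

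The partners of these receptors in the clock, 16 entries with Arntl listed under an older and a newer symbol, had 15 genes found and tested, 0 of which passed the threshold in either direction. Of these 6 were fitted higher and 9 lower, with a median log2 fold change of -0.05 beside 0.01 over all genes. Bhlhe40, a repressor of clock output, held 73.2, 48.8, 20.6 and 37.5 CPM (log2 fold change -1.07 ± 0.43 SE, edgeR adjusted p = 0.884). Per3, a period gene, held 46.4, 51.2, 87.98 and 55.8 CPM, and Bhlhe41, the paralog of Bhlhe40, held 61.4, 59.2, 46.4 and 54.2 CPM. Each of these genes had its extreme value in library A.

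Among the orphan receptors of the NR4A family, Nr4a1 was lower in both Tex11PM/Y libraries, and Nr4a2 and Nr4a3 were low in library A alone. Nr4a1, Nr4a2 and Nr4a3 are immediate-early genes, switched on within minutes by growth factors, cAMP and stress, and their proteins act without a known hormone. The stretches before their RefSeq starts are shown because the short cAMP response element (TGACG, read on both strands as TGACG or CGTCA and here in capitals) occurs in all 3; it is also part of the full element TGACGTCA. They are written 5′ to 3′ on the strand of the gene, from RefSeq on GRCm38.p6, and stop where an exon of the count table begins; the stretch of Nr4a1 lies within that gene's longer span in the count table, 101254269 to 101274795. Nr4a1 is chr15:101266596-101266845 on the plus strand, Nr4a2 is chr2:57124004-57124253 on the minus strand, and Nr4a3 is chr4:48045055-48045152 on the plus strand.
Nr4a1: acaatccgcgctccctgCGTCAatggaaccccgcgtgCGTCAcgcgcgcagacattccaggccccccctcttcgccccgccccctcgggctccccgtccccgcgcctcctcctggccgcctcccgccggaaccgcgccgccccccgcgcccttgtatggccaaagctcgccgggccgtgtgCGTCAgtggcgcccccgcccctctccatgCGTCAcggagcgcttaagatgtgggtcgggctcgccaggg
Nr4a2: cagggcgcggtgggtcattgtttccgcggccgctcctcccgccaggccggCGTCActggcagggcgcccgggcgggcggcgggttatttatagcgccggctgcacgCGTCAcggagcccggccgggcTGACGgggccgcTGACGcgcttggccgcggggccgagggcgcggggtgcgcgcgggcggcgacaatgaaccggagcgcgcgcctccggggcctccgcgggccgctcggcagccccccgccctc
Nr4a3: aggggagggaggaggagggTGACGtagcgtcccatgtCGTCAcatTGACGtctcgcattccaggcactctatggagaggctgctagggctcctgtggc

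The 250 bases before each of the 3 starts held the short element 4 times, of which 3 lie in the printed stretch of Nr4a3. Of 41 receptor genes with a RefSeq window of this length 12 held at least 1 copy, and of all 32851 windows 17.8% did. The first count is by gene and the second by window, so the 2 are not the same measure. A match of letters is a description, and neither a bound site nor a cause of the levels.

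Nr4a1, also called Nur77, held 209.5, 111, 54.9 and 103 CPM. WT replicate 1 was highest and library A lowest, and WT replicate 2 and library B were close, so the groups were narrowly apart. The mean was 160.2 ± 69.6 CPM over the WT libraries, against 78.9 ± 33.8 CPM over the Tex11PM/Y libraries (SD, n = 2 per genotype). The log2 fold change was -1.02 ± 0.44 (SE; edgeR adjusted p = 0.884). Without WT replicate 1 the log2 fold change was -0.51 and without library A it was -0.64. Nr4a2 (Nurr1) had 132, 217, 16 and 183 counts, and Nr4a3 (Nor1) had 246, 507, 20 and 461 counts. In both genes library A was more than 8 times below each other library, and library B lay between the WT libraries, so the low value was that of library A alone. The log2 fold change of Nr4a3 was -0.72 ± 1.26 (SE; edgeR adjusted p = 0.934). Without library A it turned to 0.22, and without library B, which left library A alone for Tex11PM/Y, it was -4.33. For Nr4a2 these values were -0.01 and -3.55. Both genes were singled out after their values were seen. Fibroblast and macrophage markers were lowest in library A too, at 428 and 22.7 CPM summed; their part in the low NR4A levels was not tested.

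**Figure D3:**
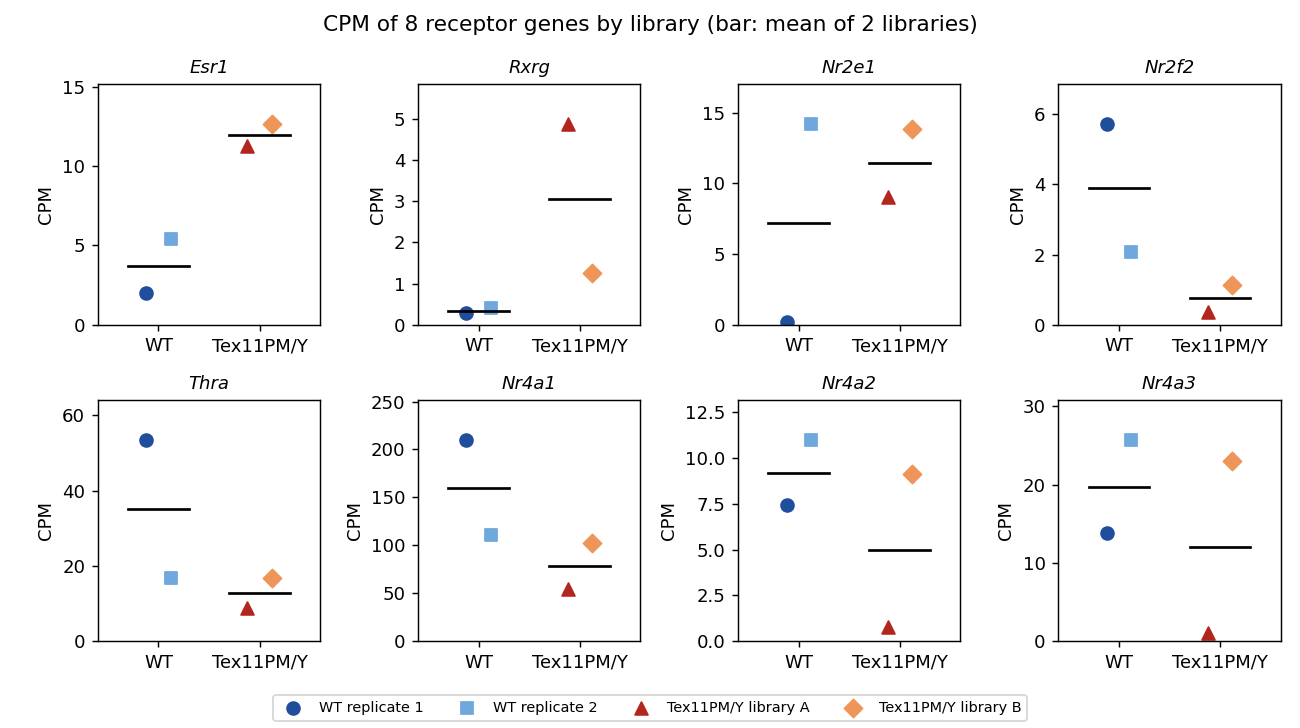
CPM of 8 receptor genes in each library (1 point each; the y axis starts at 0 and differs between panels), with a bar at the mean of the 2 libraries of a genotype. For Esr1, Rxrg, Nr2f2 and Nr4a1 the genotypes do not overlap; Nr2e1 is near 0 in WT replicate 1 alone, and Nr4a2 and Nr4a3 are near 0 in library A alone.

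Nr2e1, known as Tlx and best known as a factor of neural stem cells, was near the floor in a single WT library. It had 3 counts in WT replicate 1, 281 in WT replicate 2, 179 in library A and 278 in library B, or 0.169, 14.2, 9.01 and 13.9 CPM. WT replicate 1 was at the 3 counts that a 0 allows, while the other WT library was the highest of all. The log2 fold change between the genotypes was 0.67 ± 1.52 (SE; edgeR adjusted p = 0.951). It turned to -0.33 without WT replicate 1 and was 6.01 without WT replicate 2. The gene lies on the minus strand of chromosome 10 from 42561963 to 42583632 in mm10, and was singled out after its values were seen. Its upstream stretch is shown because it held the full cAMP response element TGACGTCA (in capitals), which is its own reverse complement. No other of the 41 receptor genes with a window held the full element, and 1.55% of all windows did. The stretch is chr10:42583633-42583840 on the minus strand of GRCm38.p6, from RefSeq.
Nr2e1: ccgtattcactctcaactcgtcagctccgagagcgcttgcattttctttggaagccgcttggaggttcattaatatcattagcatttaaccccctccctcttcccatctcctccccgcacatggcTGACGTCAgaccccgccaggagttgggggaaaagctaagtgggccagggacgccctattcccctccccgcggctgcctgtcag

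Of the COUP-TF genes, Nr2f6 was abundant and Nr2f1 and Nr2f2 were under 1 FPKM. Nr2f6 (EAR2), the most abundant receptor by FPKM, held 127, 79.5, 57.8 and 90.4 CPM, with library B inside the WT range. It lies on chromosome 8, whose genes stood above the mean of the other libraries in WT replicate 1, where Nr2f6 was highest. Nr3c2, also on chromosome 8, was highest in library A. The part of the chromosome in the level of Nr2f6 was not tested. Nr2f6 shares 914 exonic bases with Ocel1 on the other strand. Nr2f2 (COUP-TFII), a receptor of mesenchymal and Leydig progenitor cells, had 102, 41, 7 and 23 counts, or 5.73, 2.07, 0.352 and 1.15 CPM. The groups did not overlap, and WT replicate 1, where fibroblast markers were highest, was also the highest for Nr2f2, as library A was the lowest for both. Its log2 fold change was -2.37 ± 0.90 (SE; edgeR adjusted p = 0.884), and -1.47 without WT replicate 1; the part of the fibroblast markers was not tested. Nr2f2, on chromosome 7 from 70351944 to 70366735 (mm10), was singled out after its values were seen, with a mean of 0.415 FPKM. Nr2f1 (COUP-TFI) had 5, 23, 0 and 10 counts and was not tested.

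Nr6a1 and Nr5a2 overlapped between the genotypes. Nr6a1, the germ cell nuclear factor GCNF, held 59.3, 51.1, 73.98 and 42.7 CPM, with both WT libraries inside the Tex11PM/Y range (log2 fold change 0.08 ± 0.38 SE, edgeR adjusted p = 0.978). Without WT replicate 2 the value was -0.05 and without library A it was -0.37. Nr5a2, the liver receptor homolog LRH-1, a regulator of Oct4 in embryonic cells, held 24.7, 48.7, 49.6 and 36.5 CPM, lowest in WT replicate 1 (log2 fold change 0.23 ± 0.43 SE, edgeR adjusted p = 0.938). It turned to -0.20 without WT replicate 1 and to -0.01 without library A. Nr2c1 and Nr2c2, the testicular receptors TR2 and TR4, held 8.82 to 10.8 CPM and 15.8 to 37.1 CPM; Nr2c2 shares 3533 exonic bases with Mrps25 on the other strand. Esrra, the oestrogen-related receptor of mitochondrial genes, had its groups apart on the lower side, at 33.0, 20.5, 16.8 and 17.2 CPM, with the WT libraries farther from each other than WT replicate 2 from library A.

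The markers of steroid-making somatic cells among the receptors were near the floor. Nr5a1 (SF-1), the master regulator of steroidogenic and Sertoli cells, had 4, 6, 1 and 8 counts. Nr0b1 (DAX1), an X-linked repressor of Nr5a1 that is also active in embryonic stem cells, had 4, 0, 6 and 10 counts, too few to be tested, and Nr0b2 (SHP), its liver relative, had 0, 1, 5 and 5 counts. Hnf4a, Hnf4g and the photoreceptor gene Nr2e3 had at most 4 counts in any library, and Esrrg had 11 to 34 counts. In all, 11 of the 45 receptors had at most 10 counts in every library, and for these no genotype difference was detectable at this depth. The 13 receptors that did not pass the count filter were Pgr, Rarb, Ppara, Nr1i2, Nr1i3, Rorb, Hnf4a, Hnf4g, Nr2e3, Nr2f1, Nr5a1, Nr0b1 and Nr0b2.

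**Figure D4:**
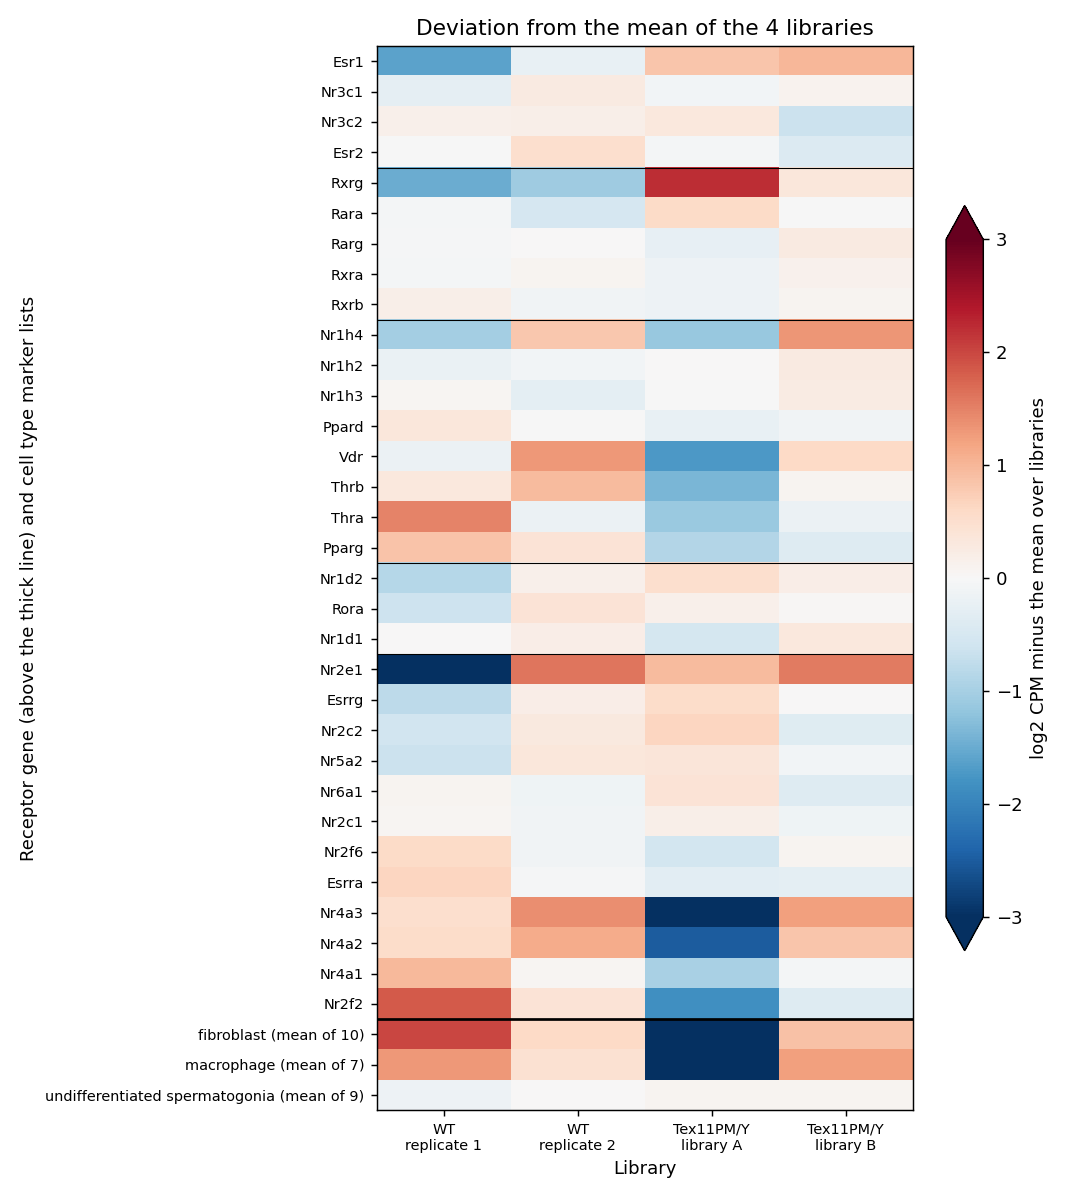
Log2 CPM of each tested receptor minus its mean over the 4 libraries (red above, blue below; values past 3 take the end color), with the means of 3 marker lists under the thick line. Nr2e1 is the bluest cell of WT replicate 1, and Nr4a2 and Nr4a3 are blue in library A as the fibroblast and macrophage lists are.

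Across the receptors the libraries differed within each genotype as well as between them. Library A held the lowest value of 16 of the 32 tested receptors and WT replicate 1 that of 10; over all genes these shares were 34.4% in each. More than 2-fold differences separated 8 of 32 receptors (25%) between the WT libraries and 8 (25%) between the Tex11PM/Y libraries, beside 22.1% and 24.7% of all genes. Between the genotypes, 16 receptors (50%) differed so far from WT replicate 1 to library A and 9 (28.1%) from WT replicate 1 to library B, beside 39.2% and 22.3% of all genes. From WT replicate 2 it was 11 receptors (34.4%) to library A and 2 (6.25%) to library B, beside 23.4% and 5.68% of all genes. The closest pair of the 6 in receptor levels, with a median difference of 0.27 log2, was WT replicate 2 and library B, which are of different genotypes.

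Coactivators and corepressors, the proteins that receptors exchange on ligand binding, showed no called gene. Of 15 coactivators 14 were tested, with 8 fitted higher and 6 lower and a median log2 fold change of 0.05, and Ppargc1a was under the count filter. Crebbp and Ep300, the histone acetyltransferases CBP and p300, held 286, 337, 466 and 387 CPM and 228, 315, 409.6 and 336 CPM, lowest in WT replicate 1 and highest in library A. Ncoa1, the steroid receptor coactivator SRC-1, held 11.1, 12.5, 5.34 and 7.72 CPM. All 12 corepressors were tested, with 9 fitted higher and 3 lower and a median of 0.18. Lcor, a ligand-dependent corepressor, held 117, 199, 290.5 and 203 CPM, Tbl1xr1 held 67.5, 84.2, 147 and 85.5 CPM, and its X-linked relative Tbl1x held 119, 119, 189 and 123 CPM. In these 3 genes library A stood above the rest and library B was within 5 CPM of the higher WT library. Over all 8 partner and target lists 0 genes were called by edgeR or DESeq2, and the genes that reached an unadjusted p under 0.05 included Zbtb16 on the higher side and Bhlhe40 and Plin2 on the lower side.

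The 12 chaperones of steroid receptors had 2 genes fitted higher and 10 lower, 0 of them called, with a median log2 fold change of -0.28. Library A was the lowest in 8 of the 12 and WT replicate 1 the highest in 7, beside 34.4% and 34.2% of all genes. Dnajb1, a heat-shock co-chaperone on chromosome 8, held 207 CPM in WT replicate 1 and 92.5, 82.7 and 90.5 CPM in the other libraries. The immunophilins Fkbp5 and Fkbp4 held 166, 105, 97.95 and 87.8 CPM and 858, 826, 515.5 and 817 CPM, with the low value of Fkbp4 in library A alone.

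Lists of receptor targets were mostly fitted lower in Tex11PM/Y, again with 0 genes called in each. Library A was the lowest in 7 of 10 retinoic acid targets and in 7 of 12 glucocorticoid targets. WT replicate 1 was the highest in 7 of each. Over all genes library A was lowest in 34.4% and WT replicate 1 highest in 34.2%. The fibroblast markers had these extremes in 10 of 10 genes, and their part in the target levels was not tested. Retinoic acid targets had 10 of 12 genes tested, with 1 fitted higher, 9 lower and a median log2 fold change of -0.68. Tgm2, a transglutaminase, held 53.1, 16.2, 2.57 and 16.1 CPM, and WT replicate 2 and library B were equal within 1 CPM. Crabp2, which carries retinoic acid to the nucleus, held 4.38, 8.24, 9.82 and 8.77 CPM. Kit held 31.9, 29.2, 28.55 and 28.65 CPM, and Stra8 held 10.8, 20.9, 17.4 and 8.92 CPM with groups that overlapped. The log2 fold changes of Kit, Rec8 and Stra8 were -0.09, -0.17 and -0.27, each smaller in size than the list median. They were named after their values were seen. The log2 fold change of Tgm2 was -1.89 (edgeR adjusted p = 0.884). It was -0.81 without WT replicate 1, -1.10 without library A and -3.80 without library B.

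Glucocorticoid targets had 12 genes tested, with 2 fitted higher, 10 lower and a median of -0.49. Fkbp5 and Per1 are also in the chaperone and clock lists, and Zbtb16 is also among the 9 markers of undifferentiated spermatogonia. Of those markers 6 were fitted higher and 3 lower. Zbtb16, a glucocorticoid target in other tissues and a repressor on which the maintenance of SSCs depends, held 227, 355, 607.5 and 489 CPM (log2 fold change 0.91 ± 0.34 SE, edgeR adjusted p = 0.884). It was lowest in WT replicate 1 and highest in library A, the reverse of the fibroblast markers, whose part was not tested. Cebpd, an inflammatory transcription factor, held 46.3, 18.9, 1.21 and 14.1 CPM (log2 fold change -2.09, edgeR adjusted p = 0.884). Its value was -1.31 without WT replicate 1, -1.21 without library A and -4.79 without library B.

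PPAR targets, genes of fatty acid oxidation and storage, had the lowest median of the target lists, -0.84 over 14 tested genes, with 2 fitted higher and 12 lower. Plin2, the coat protein of lipid droplets, held 168.5, 74.5, 32.6 and 64.7 CPM (log2 fold change -1.32 ± 0.50 SE, edgeR adjusted p = 0.884). Pdk4, which blocks pyruvate oxidation, held 53.9, 7.74, 1.41 and 7.72 CPM. In both genes WT replicate 1 was highest and library A lowest, and WT replicate 2 and library B lay close. Library A was the lowest in 12 of the 14 genes and WT replicate 1 the highest in 10, beside 34.4% and 34.2% of all genes. The fibroblast markers had the same extremes, with 10 of 10 lowest in library A and highest in WT replicate 1. Their part in the PPAR target levels was not tested. When WT replicate 1 was left out, Plin2 came to -0.63 and Pdk4 to -0.77 on the log2 scale. In the fit with the count filter the log2 fold change of Pdk4 was -2.75 ± 1.16 (SE; edgeR adjusted p = 0.884). Pdk4 passed the threshold only with no filter on low counts (log2 fold change -2.77, edgeR adjusted p = 0.0129). In that setting 50 of 33024 genes passed. The PPAR genes themselves, Ppard, Pparg and Ppara, held 29.4 to 43.0, 0.252 to 1.07 and 0.202 to 0.674 CPM.

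LXR targets had 8 genes tested, with 3 fitted higher, 5 lower and a median of -0.32. Lpcat3, which remodels phospholipids, held 76.7, 72.2, 40.1 and 56.5 CPM, the desaturase gene Scd1 held 20.3, 10.1, 7.20 and 7.82 CPM, and Mylip, which degrades the LDL receptor, held 23.4, 11.9, 10.2 and 11.5 CPM. These 3 targets had their groups apart on the lower side. Srebf1, a regulator of lipid synthesis, held 151.9, 151.9, 181 and 175 CPM. Fasn, the fatty acid synthase gene, held 551, 547, 623 and 589 CPM. Both had their groups apart on the higher side, whereas Abca1, Abcg1 and Apoe had groups that overlapped. Groups did not overlap in 62.5% of the 8 LXR targets, beside 32.4% of all genes tested. None of these LXR targets passed the threshold.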

How the data were processed

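Poly(A) RNA of 2 WT and 2 Tex11PM/Y libraries of sorted mouse SSCs was sequenced, and the labels' protocols do not say whether the kit marks strand. Tools listed in the submitters' processing notes, without roles or versions, are DESeq2, StringTie, featureCounts, STAR and fastp, with the build mm10. The authors deposited raw read counts of 55335 genes, and, per the file headers, FPKM and TPM for 37653 of them. The FPKM table named 37653 genes and 17602 more were named from a reference table, which left 80 unnamed. No library pair matched within sampling noise (chi-square over degrees of freedom 18.6 to 217).

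Counts were fitted with edgeR 4.0.16 under R 4.3.3 (TMM scaling, filterByExpr, robust quasi-likelihood F test, genotype alone, Benjamini-Hochberg adjustment over 17262 genes, threshold 0.05), after a check on simulated data. Log2 CPM used a prior count of 2. The members, the 8 partner and target lists and the 5 marker lists (185 entries, 184 found) were chosen with earlier results of these data known. Per-library values were given for receptors of at least 1 FPKM, and fold changes for those with an unadjusted p under 0.1, group means 2-fold apart, or a known role in this tissue (Rara, Rarg, Nr6a1, Nr5a2, Nr0b1, Nr3c1); lists named up to 3 genes with the smallest p and groups apart, and some of these are not reported here. Results were recomputed with library size alone, with the size factors of DESeq2 1.42.0, with its Wald test, without a count filter, with a filter of 1 CPM in 2 libraries, with limma 3.58.1 on log2(FPKM + 1), log2(FPKM + 0.1) and log2(TPM + 1), and without each library in turn.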

Additional observations from a re-analysis of the deposited data

How the results depend on the processing

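Of all genes tested, DESeq2 called 1 and edgeR without a count filter called 50, against 0 as reported. Receptors called stayed at 0 in both. Without the filter 5 of 45 receptors reached an unadjusted p under 0.05, beside 5.88% of 33024 genes. List genes called were 1 without the filter. With a library left out, genes called ranged from 0 to 518, receptors called from 0 to 2 (Rxrg and Nr4a3, without library B), receptors at an unadjusted p under 0.05 from 0 to 9, and list genes called from 0 to 7. The log2 fold change of Nr3c1 turned to 0.043 with library size alone, 0.002 with the 1 CPM filter, 0.17 and 0.195 with limma on log2(FPKM + 1) and log2(FPKM + 0.1), and 0.30 on log2(TPM + 1). With a library left out it ranged from -0.27 to 0.26 for Nr3c1 (0.079 without library A), from -0.275 to 0.29 for Rarg, from -0.20 to 0.78 for Nr5a2 (-0.007 without library A), from -0.37 to 0.375 for Nr6a1 (-0.05 without WT replicate 2), from -4.33 to 0.22 for Nr4a3 and from -0.33 to 6.01 for Nr2e1. The calls without library B were among 18765 genes tested in all, 34 of them receptors, with library A alone for Tex11PM/Y. Rxrg, as stated above, reached the count filter through Tex11PM/Y. Fits without a library leave a genotype with 1 library, which is assumed to vary like the other genotype. The cause of these changes was not tested. The median log2 fold change of all genes moved from 0.01 to 0.17 on log2(TPM + 1). No paired analysis was possible because both Tex11PM/Y columns carry the same replicate number.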
